A study of Mus musculus with 18 samples.

Results

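The transcripts described here are those of the mitochondrial respiratory chain and of ATP synthase. They were taken as the probe sets whose only gene symbol in the platform annotation starts with Nduf, Uqcr, Cox4, Cox5, Cox6, Cox7, Cox8 or Atp5. The rule found 170 probe sets of 86 genes among 45037 probe sets on the array. Of the 170, 132 probe sets of 79 genes varied by at least 0.01 log2 over all 18 arrays, and the other 38 were constant and were left out. The 45037 probe sets as a whole held 11946 that varied. The range over the same 18 arrays chose the varying members, so counts of changed members are given as a description beside the share of all probe sets that changed, and support nothing.

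The respiratory chain sits in the inner mitochondrial membrane. Complex I (the Nduf genes) takes electrons from NADH, complex III (the Uqcr genes) passes them to cytochrome c, and complex IV, cytochrome c oxidase (the Cox genes), hands them to oxygen. The proton gradient that these complexes build drives ATP synthase (the Atp5 genes). All members are encoded in the nucleus and imported. A few small subunits of complex IV exist as pairs of genes. Cox6a2, Cox7a1 and Cox8b are the isoforms known from heart and skeletal muscle, and Cox7a1 and Cox8b are also known from brown fat. Cox6a1, Cox7a2 and Cox8a are the isoforms of most other tissues. Skin is a mixture of keratinocytes, fibroblasts, fat and, under the dermis, a thin sheet of striated muscle.

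Skin of the back was taken from male mice of the hairless albino strain HR-1, labelled as 6 weeks old, and its RNA was hybridised to Affymetrix mouse genome arrays, 6 arrays a group, each labelled a biological replicate. WB mice had the skin stripped with cellophane tape and were given winged bean extract orally. The daily amount was 200 mg/kg, suspended in carboxymethylcellulose (0.3%), on 5 occasions a week over 5 weeks, of which the first 1 week preceded stripping. TS mice were stripped without extract. Stripping was done 3 times weekly over 4 weeks, and was stopped each time when water loss through the skin had reached 70–100 g/m2/h. NT mice were not stripped. The labels do not say whether TS and NT mice received the vehicle. Values are the deposited ones, read as log2, and are given as the lowest, the median and the highest of the 6 arrays of a group. Array medians lay between 6.90 and 6.91 in WB, 6.93 and 6.94 in TS and 6.93 and 6.95 in NT.

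The arrays differed in ways that bear on every result below. The array's control probe sets for beta-actin and Gapdh read the 3' end and the 5' end of the same transcript, and the 3' minus 5' difference measures how far a signal is tilted to the 3' end. The beta-actin difference averaged 5.69 ± 0.25 in WB, 0.16 ± 0.07 in TS and −0.51 ± 0.10 in NT (log2, SD, n = 6 each). The Gapdh difference averaged 3.70 ± 0.36 in WB, −0.44 ± 0.12 in TS and −0.59 ± 0.11 in NT. All WB arrays thus stood apart from all TS and NT arrays. In WB the Gapdh 5' probe set read 5.37 to 6.23, under the array median, so the size of the Gapdh difference there is uncertain. In WB against TS the beta-actin difference was higher by 5.53 and the Gapdh difference by 4.14 (two-sided exact permutation test of 6 against 6 arrays, p = 0.00216 each, the smallest it can give, 0.0026 after adjustment over 6 comparisons). TS and NT differed too, but by far less. In TS against NT the beta-actin difference was higher by 0.66 (exact permutation p = 0.00216, adjusted 0.0026) and the Gapdh difference by 0.15 (exact permutation p = 0.0476, adjusted 0.0476). The Gapdh p ran from 0.0173 to 0.0952 (exact permutation) when each of the 12 arrays was left out, and it was above 0.05 in 9 of those 12 cases. On 1 NT array, replicate 5, the mean of 10 liver genes was 14.59, against 6.99 to 7.14 on the other NT arrays.

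In stripped skin the muscle isoforms of cytochrome c oxidase fell, while their general counterparts did not pass the test. Cox7a1, Cox8b and Cox6a2 were lower in TS than in NT by 2.18, 1.53 and 1.12 on the log2 scale, which is 4.54-fold, 2.89-fold and 2.17-fold if the scale is base 2. Most subunits of complexes I, III and IV and of ATP synthase differed by less than 0.5, and those that passed were nearly all lower.

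Cox7a1 read 7.36, 7.59 and 8.47 (lowest, median and highest) in TS, against 8.71, 10.11 and 10.83 in NT. All 6 TS arrays lay below all 6 NT arrays, and the difference was −2.18 ± 0.30 (SE, adjusted p = 0.000158). Cox8b read 9.04, 9.25 and 9.98 in TS, against 10.21, 10.85 and 11.42 in NT. Here too the groups did not overlap, with a difference of −1.53 ± 0.20 (SE, adjusted p = 0.000102). Cox6a2 had a pair of varying probe sets. The probe set 1417607_at read 8.94, 9.29 and 9.75 in TS, against 9.97, 10.56 and 10.81 in NT, without overlap and with a difference of −1.12 ± 0.17 (SE, adjusted p = 0.000266). The probe set 1457633_x_at read 7.23, 7.86 and 8.44 in TS, against 8.56, 9.30 and 9.83 in NT, again without overlap, and differed by −1.35 ± 0.22 (SE, adjusted p = 0.000523). The suffix _x_at marks probe sets with probes that may also match other transcripts.

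The general isoforms did not pass the test in the deposited values. Cox7a2 (1416970_a_at) read 12.35, 12.36 and 12.42 in TS, against 12.31, 12.36 and 12.38 in NT, and the groups overlapped. Cox6a1 (1417417_a_at) read 12.66, 12.73 and 12.83 in TS, against 12.67, 12.69 and 12.76 in NT, also with overlap. Cox8a (1448222_x_at) read 11.07, 11.13 and 11.24 in TS, against 11.13, 11.28 and 11.39 in NT. Their differences were 0.02 ± 0.02, 0.03 ± 0.03 and −0.13 ± 0.32 (SE), and their adjusted p-values were 0.727, 0.704 and 1. The SE of Cox8a is wide because all 18 arrays share 1 estimate of the spread and its WB arrays scatter. With quantile normalization, Cox7a2 and Cox6a1 were higher in TS by 0.10 and 0.13 and passed.

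The change of each muscle isoform was set against that of its general partner, array by array. The muscle isoform fell further than its partner by 1.15 ± 0.21 for Cox6a2 and Cox6a1, by 2.20 ± 0.37 for Cox7a1 and Cox7a2 and by 1.40 ± 0.25 for Cox8b and Cox8a (log2, SE, n = 6 a group). The muscle minus general value of every TS array lay below that of every NT array in all 3 pairs. Each pair gave p = 0.00216 in a two-sided exact permutation test, the smallest it can give, and 0.00216 after adjustment over the 3 pairs. The pairs were chosen with the fall of the muscle isoforms known, so these p-values are not independent evidence of it.

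**Figure D1:**
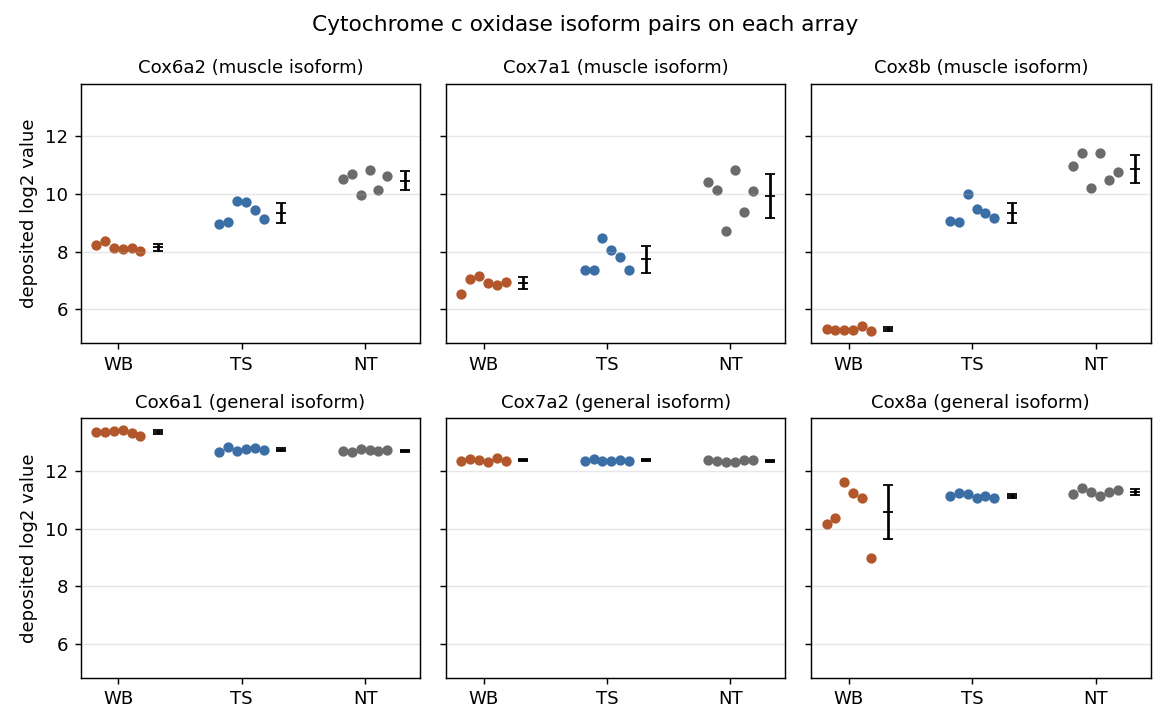
Deposited log2 values of the muscle isoforms (top) and general isoforms (bottom) of 3 cytochrome c oxidase subunits on each of the 6 WB, 6 TS and 6 NT arrays, with the mean and SD beside the points. Cox6a2, Cox7a1 and Cox8b are lower on every TS array than on every NT array, while the Cox7a2 values of all 3 groups lie between 12.31 and 12.44.

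The promoters of the pairs are shown because the isoforms of a pair moved apart. Each is the RefSeq window of GRCm38.p6, 250 bases before the start and 50 after, read 5′ to 3′ on the gene's strand, with motif matches in capitals. The motifs searched on both strands included the palindromic site of nuclear respiratory factor 1 (NRF1) and AAGGTCA of the oestrogen-related receptors. CCGGAAG of the ETS family including GABP (CTTCCGG on the other strand) and CAGCTG, an E box of myogenic factors, were also searched. The last was a loose pattern for the MEF2 family with any base allowed in its middle. A match to it need not be a MEF2 site, and sites that differ at its fixed bases were not counted. None of these motifs is part of another.
Cox7a1 promoter, chr7:30183921-30184220, plus strand: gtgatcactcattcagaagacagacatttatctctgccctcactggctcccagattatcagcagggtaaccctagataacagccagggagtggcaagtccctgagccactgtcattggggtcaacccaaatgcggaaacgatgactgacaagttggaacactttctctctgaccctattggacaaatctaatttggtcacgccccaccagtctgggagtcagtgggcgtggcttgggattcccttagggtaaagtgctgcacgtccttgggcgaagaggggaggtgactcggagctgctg
Cox7a2 promoter, chr9:79759804-79760103, minus strand: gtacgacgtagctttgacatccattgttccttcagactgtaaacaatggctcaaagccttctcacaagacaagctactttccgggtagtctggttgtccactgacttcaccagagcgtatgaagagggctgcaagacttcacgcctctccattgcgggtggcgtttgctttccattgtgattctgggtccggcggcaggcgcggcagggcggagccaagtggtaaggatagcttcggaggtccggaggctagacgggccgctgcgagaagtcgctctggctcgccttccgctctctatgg
Cox8b promoter, chr7:140900397-140900696, minus strand: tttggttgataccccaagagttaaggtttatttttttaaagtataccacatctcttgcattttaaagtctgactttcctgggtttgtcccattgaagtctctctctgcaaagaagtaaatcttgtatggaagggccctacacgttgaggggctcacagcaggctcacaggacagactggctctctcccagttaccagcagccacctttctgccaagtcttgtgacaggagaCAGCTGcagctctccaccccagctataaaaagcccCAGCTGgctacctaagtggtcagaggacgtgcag
Cox8a promoter, chr19:7217567-7217866, minus strand: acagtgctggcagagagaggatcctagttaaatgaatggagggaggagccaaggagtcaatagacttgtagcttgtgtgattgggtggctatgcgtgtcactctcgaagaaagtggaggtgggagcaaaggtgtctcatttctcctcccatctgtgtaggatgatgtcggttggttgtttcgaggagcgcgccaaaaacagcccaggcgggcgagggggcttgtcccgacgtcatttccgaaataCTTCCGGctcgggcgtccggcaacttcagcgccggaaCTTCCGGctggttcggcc
Cox6a1 promoter, chr5:115348909-115349208, minus strand: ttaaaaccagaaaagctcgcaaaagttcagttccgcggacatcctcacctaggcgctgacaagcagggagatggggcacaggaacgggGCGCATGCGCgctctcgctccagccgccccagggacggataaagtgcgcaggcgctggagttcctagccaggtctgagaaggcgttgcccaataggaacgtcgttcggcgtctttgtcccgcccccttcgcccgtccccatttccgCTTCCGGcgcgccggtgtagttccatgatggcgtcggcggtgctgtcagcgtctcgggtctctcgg
The Cox8b window held CAGCTG 19 bases before the start and again at position 17 after it. The Cox8a window held CTTCCGG 5 bases before the start and at position 33. Cox6a1 held the NRF1 site 162 bases before the start and CTTCCGG 16 bases before it. No motif of the 5 was found in the windows of Cox7a1 and Cox7a2. Of the 79 varying genes, 67 had a promoter in the table, Cox6a2 and Ndufa4l2 not among them.

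Over the 67 promoters the median GC content was 58.7%, against 52.7% in all 27025 promoters of the table, and the median number of CpG pairs was 20, against 7. The NRF1 site was present in 6 of 67 (8.96%), against 0.977% of all promoters, and CCGGAAG in 15 of 67 (22.4%), against 9.12%. Both are themselves rich in G and C. AAGGTCA was present in 6 of 67 (8.96%), against 4.66%. CAGCTG was present in 6 of 67 (8.96%), against 16.1%, and the loose MEF2 pattern in 2 of 67 (2.99%), against 3.7%. These shares describe letters in a window and not binding.

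The muscle isoforms moved in the same direction as skeletal muscle marker genes. Of 26 skeletal muscle genes on the array (contractile proteins, calcium handling and muscle metabolism), 23 varied, 18 were lower in TS than in NT and none was higher, with a median difference of −1.69. By their brightest probe set, 7.93% of all genes were lower and 7.27% higher. The mean of the 23 genes ran from 10.04 to 10.52 in TS (median 10.21), against 11.51 to 12.86 in NT (median 12.08), without overlap. The muscle creatine kinase Ckm fell by 2.35 and skeletal actin Acta1 fell by 1.45. The part of muscle content in the fall of the isoforms was not tested. In bulk tissue, fewer cells of a type and less RNA per cell cannot be told apart.

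Within the NT group alone, arrays with a higher muscle mean also had higher values of the muscle isoforms. Over the 6 NT arrays Cox8b gave r = 0.889 with the muscle mean (exact permutation p = 0.0278, Spearman's rho 0.771, p = 0.103), and r = 0.848 without the 2 arrays farthest from the median. Cox7a1 gave r = 0.857 (exact permutation p = 0.0139, rho 0.943, p = 0.0167), and r = 0.762 without those 2 arrays. For Cox6a2 the NT values were r = 0.816 (exact permutation p = 0.0389, rho 0.771, p = 0.103) for 1417607_at and r = 0.86 (exact permutation p = 0.0278, rho 0.771, p = 0.103) for 1457633_x_at. Over the 6 TS arrays r was between 0.526 and 0.779 for these 4 probe sets, with exact permutation p between 0.0972 and 0.267, and it was below 0 for all 4 without the 2 farthest arrays, so there the relation rested on those arrays. Of the 10 relations computed, none passed after adjustment (lowest adjusted p = 0.0926 for r and 0.167 for rho, exact permutation).

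**Figure D2:**
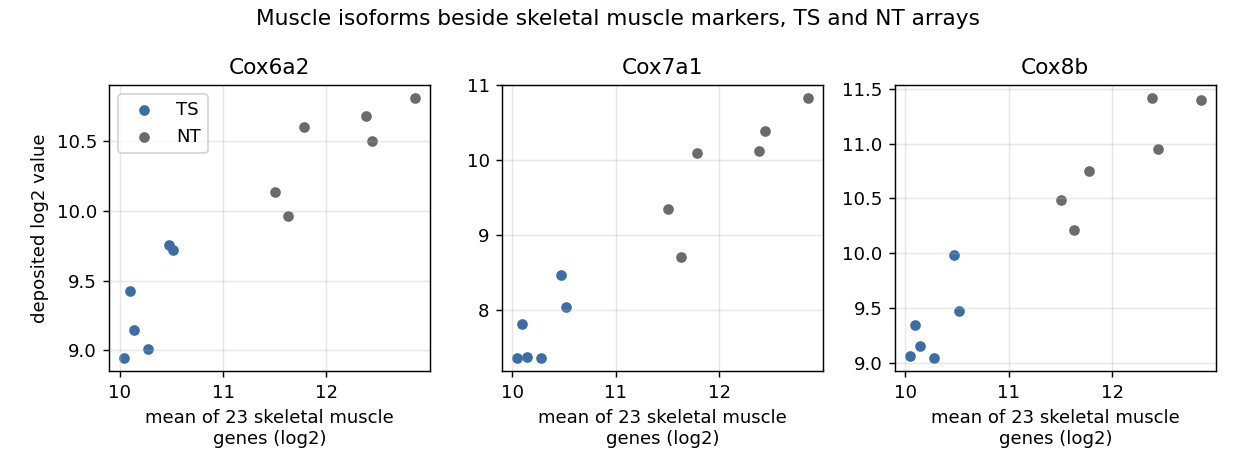
Deposited log2 value of Cox6a2 (1417607_at), Cox7a1 and Cox8b against the mean of 23 skeletal muscle genes on the 6 TS and 6 NT arrays. TS arrays lie between 10.04 and 10.52 on the horizontal axis and NT arrays between 11.51 and 12.86, and the isoform values of the TS arrays lie below those of the NT arrays.

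Fat markers moved in the same direction. Of 8 adipocyte genes on the array, 7 were lower in TS than in NT, against 7.93% of all genes by their brightest probe set. The mean of the adipocyte genes ran from 9.79 to 10.58 in TS, against 11.37 to 11.96 in NT. Of 6 genes on the array that were listed for brown fat, only Elovl3 and Cidea varied and neither passed the test. Ucp1, the defining gene of brown fat, was constant, so nothing is read about brown fat. Of 11 keratinocyte genes, 8 were higher and 1 was lower in TS, against 7.27% higher and 7.93% lower of all genes. The mean of the keratinocyte genes was 11.92 to 12.36 in TS, against 11.11 to 11.63 in NT, and 11.52 to 11.85 in WB. The part of these cell types in the members' changes was not tested.

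Ndufa4l2, a paralog of Ndufa4 known as a gene induced by low oxygen, was the remaining large fall. It read 7.82, 8.0 and 8.18 in TS, against 8.48, 9.13 and 9.41 in NT, without overlap. The difference was −1.02 ± 0.17 (SE, adjusted p = 0.000653). Its relation to the muscle mean was r = −0.604 over the 6 NT arrays (exact permutation p = 0.253, rho −0.486, p = 0.356) and −0.11 over the 6 TS arrays (exact permutation p = 0.806, rho −0.0286, p = 1). Ndufa4 itself, first counted with complex I and now placed in complex IV, was slightly higher, at 12.27, 12.34 and 12.45 in TS, against 12.10, 12.24 and 12.28 in NT. The groups overlapped slightly, and the difference was 0.12 ± 0.04 (SE, adjusted p = 0.0372). That call was lost in 7 of the 18 fits that left out 1 array (adjusted p up to 0.0879).

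Over all members, 28 of the 132 varying probe sets were lower in TS than in NT and 3 were higher, in 24 and 3 genes. That is 21.2% lower and 2.27% higher, against 19.4% lower and 18.7% higher among all varying probe sets. Of all 170 members 16.5% were lower, against 5.14% of all 45037 probe sets, and 1.76% were higher, against 4.97%. Among all 45037 probe sets 10.1% passed in either direction, and among the varying ones 38.1%. The median difference of the varying members was −0.10, and that of all varying probe sets was 0.003. In 22 members the 6 TS and 6 NT arrays did not overlap, 21 of them lower and 1 higher, against 12.7% lower and 12.2% higher among all varying probe sets (24.9% in either direction). Nothing is read from these shares, since the rule used the same arrays. Of the 31 that passed, 23 differed by less than 0.5 and 5 by at least 1.

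Falls outnumbered rises under each scaling, while the share of rises moved. After quantile normalization 22 members were lower and 11 higher, 4 of the 11 being constant in the deposited values, and the median difference of the varying members was −0.06. After array medians were subtracted 26 were lower and 3 higher, with a median of −0.10. In a fit of the TS and NT arrays alone, without WB, 34 members were lower and 2 higher. Without NT replicate 5, which carried the liver transcripts, 27 were lower and 1 was higher.

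**Figure D3:**
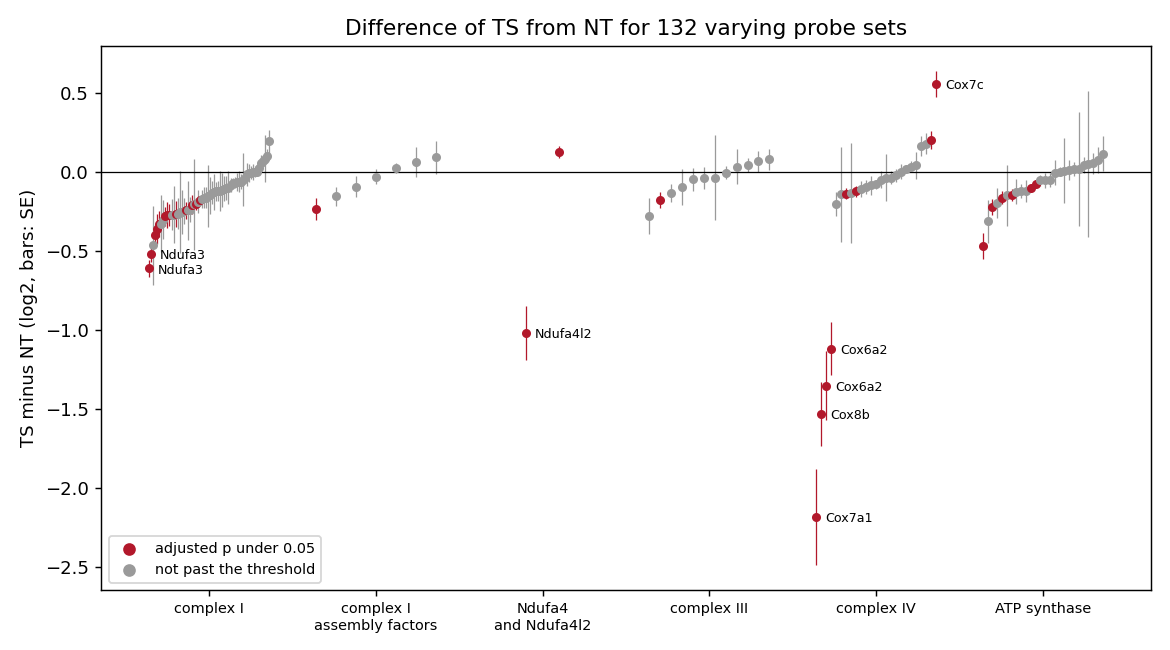
Difference of TS from NT (log2, TS minus NT, bars: SE) for the 132 varying probe sets, grouped by complex and sorted within it, with those past adjusted p under 0.05 in red. The muscle isoforms of complex IV and Ndufa4l2 fall by at least 1, and other members that passed lie between −0.61 and 0.56.

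In complex I 13 of 60 varying probe sets (32 genes) fell, or 21.7%, and none was higher, with a median of −0.15. Among all varying probe sets 19.4% fell and 18.7% rose, so the share of falls was near that of the whole array. Ndufa3, an accessory subunit, changed most, and its pair of probe sets moved together. The probe set 1428464_at read 11.89, 12.01 and 12.11 in TS, against 12.51, 12.64 and 12.72 in NT. The groups did not overlap, and the difference was −0.61 ± 0.05 (SE, adjusted p = 3.32e-06). The probe set 1452790_x_at differed by −0.52 ± 0.05 (SE, adjusted p = 1.11e-05). Ndufa13, an accessory subunit also known as Grim19, read 10.80, 10.93 and 11.09 in TS, against 11.14, 11.37 and 11.46 in NT, without overlap, and fell by 0.40.

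Both probe sets of Ndufs7, a core subunit that carries an iron-sulphur cluster, fell, by 0.36 and 0.28. Ndufb7, Ndufs4, Ndufa5, Ndufc1, Ndufb9, Ndufb3, Ndufa2 and Ndufa1 fell by 0.33 to 0.18 on 1 probe set each. The core subunits Ndufs1 (−0.17, adjusted p = 0.0508) and Ndufv1 (−0.05 and 0.00 on its probe sets) did not pass. Among 7 probe sets of complex I assembly factors, Ndufaf3 fell by 0.23 and the others did not pass. That is 14.3% lower, against 19.4% of all varying probe sets.

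In complex III, 1 of 12 varying probe sets passed (8.33%), and it was lower. Among all varying probe sets 38.1% passed, 19.4% lower and 18.7% higher. Uqcrb, a small subunit that binds ubiquinone, fell by 0.18 on 1455997_a_at (13.06, 13.18 and 13.31 in TS, against 13.28, 13.39 and 13.44 in NT), where the groups overlapped slightly. The core protein Uqcrc1 (−0.10 ± 0.12, SE) and the Rieske iron-sulphur protein Uqcrfs1 (0.03 ± 0.11, SE) did not pass.

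Complex IV had 6 falls (24%) and 2 rises (8%) in 25 varying probe sets, against 19.4% and 18.7% of all varying probe sets. Beside the muscle isoforms, Cox6b2, an isoform known from testis, fell by 0.14 and Cox5a by 0.12 on 1 of its 3 probe sets, a call lost in 7 of the 18 fits that left out 1 array (adjusted p up to 0.0712). Cox4i1, Cox5b, Cox6b1 and Cox6c did not pass on any probe set. Cox7a2l, which takes part in joining complexes III and IV, was higher by 0.20 on 1432263_a_at (10.50, 10.64 and 10.79 in TS, against 10.40, 10.44 and 10.51 in NT, with a slight overlap), while its other probe sets differed by 0.18 and 0.16 and did not pass. The call was lost in 5 of the 18 fits that left out 1 array (adjusted p up to 0.0598). Cox7c was the largest rise, at 6.89, 7.07 and 7.31 in TS, against 6.48, 6.52 and 6.56 in NT, a difference of 0.56 ± 0.08 (SE, adjusted p = 0.00024). Every TS array exceeded every NT array. The NT values lie under the array median, so the size of that rise is uncertain.

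ATP synthase had 6 falls in 26 varying probe sets (17 genes), or 23.1%, and no rise, against 19.4% falls and 18.7% rises among all varying probe sets. Atp5e, the epsilon subunit of the central stalk, read 12.36, 12.42 and 12.64 in TS, against 12.61, 12.96 and 13.15 in NT, with a slight overlap, and differed by −0.47 ± 0.08 (SE, adjusted p = 0.00103). Atp5h, a subunit of the peripheral stalk, fell by 0.22 and 0.15 on its probe sets. Atp5c1, the gamma subunit, fell by 0.16 and Atp5j by 0.10. The catalytic beta subunit Atp5b differed by 0.02 ± 0.36 (SE). The alpha subunit Atp5a1 passed on 1 of 3 probe sets, with a fall of 0.07, and that call was lost in 13 of the 18 fits that left out 1 array (adjusted p up to 0.101).

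Other mitochondrial lists, drawn up with earlier results known, went the same way in part. Of 8 genes of complex II and cytochrome c, 4 fell, with Sdhc at −0.58, Sdhb at −0.32 and Sdha at −0.22, while the fourth, Sdhaf2, differed by only −0.01. Of 16 genes of the tricarboxylic acid cycle and pyruvate dehydrogenase, 5 fell and none rose, among them fumarase, Fh1, by 0.34 and Suclg1 by 0.22. Of 24 assembly factors of complexes III, IV and V, 4 fell and 1 rose. The copper chaperone Cox17 fell by 0.52, Coa3 by 0.44 and Tmem70 by 0.16, while Cox11 rose by 0.22. Of 14 genes of the outer membrane and matrix, in contrast, 5 rose and 1 fell. The prohibitin Phb2 rose by 0.52, the import receptor Tomm20 by 0.38 and the protease Clpp by 0.24, while the channel Vdac3 fell by 0.17. Of 15 regulators of mitochondrial biogenesis 6 varied. The coactivator Ppargc1b fell by 0.48, and its relative Pprc1 rose by 0.31. These counts are out of genes represented by their brightest probe set, of which 7.93% were lower and 7.27% higher over the whole array.

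In WB against TS nearly every varying member differed, in both directions and often in both directions within 1 gene. Of 132 varying probe sets, 73 were lower (55.3%) and 46 higher (34.8%), against 41.7% lower and 47.1% higher among all varying probe sets. Of all 45037 probe sets 23.6% passed, 11.1% lower and 12.5% higher, and of the varying ones 88.8%. The median difference was −0.81 for the varying members and 0.09 for all varying probe sets. With quantile normalization 71 members were lower and 85 higher, 34 of the 85 being constant in the deposited values, which such rescaling moves. Falls reached 7.87, with 43 of at least 2 and 19 of at least 4. Only 8 rises reached 1, and 1 reached 2.

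The deepest falls were in Uqcrh, the hinge protein of complex III, and in small subunits of ATP synthase. The probe set 1453229_s_at of Uqcrh read 5.11, 5.25 and 5.33 in WB, against 12.91, 13.15 and 13.25 in TS (and 12.88, 13.07 and 13.20 in NT). No WB array came near a TS array, and the difference was −7.87 ± 0.07 (SE, adjusted p = 1.62e-21). The other varying probe set of Uqcrh, 1452133_at, differed by −4.68. Atp5l, a membrane subunit, read 6.21, 6.33 and 6.48 in WB, against 13.06, 13.16 and 13.24 in TS, a difference of −6.84 ± 0.05 (SE, adjusted p = 1.81e-22). Atp5e read 6.03, 6.16 and 6.39 in WB, against 12.36, 12.42 and 12.64 in TS, a difference of −6.27 ± 0.08 (SE, adjusted p = 1.62e-18). The WB values of all 3 lie under the array median, so these sizes are uncertain. In all, 17 varying members had a WB mean under the array median, against 1 in TS and 3 in NT.

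Ndufa7 (−5.73 on 1436567_a_at), Ndufa3 (−5.39), Atp5g2 (−5.36), Atp5j2 (−5.29) and Uqcr10 (−5.19) completed the 8 genes with the largest falls. Each gene is ranked here by its lowest probe set. On their other varying probe sets Ndufa3 differed by −4.63, Uqcr10 by −1.76 and Atp5j2 by 0.27. The largest rise was Ndufab1, the mitochondrial acyl carrier protein, on 1428160_at, with 9.39, 9.68 and 9.82 in WB, against 7.34, 7.41 and 7.52 in TS, a difference of 2.21 ± 0.08 (SE, adjusted p = 5.93e-13). The other varying probe sets of Ndufab1 rose by less, the smallest rise being 0.08. Atp5a1 on 1420037_at was higher by 1.66, and both probe sets of the assembly factor Ndufaf4 by 1.54 and 1.31. Ndufv2, Cox7c, Ndufb7 and Ndufb11 each had a probe set that was higher by 1.29, 1.28, 1.06 and 1.03. Another probe set of Ndufb7, 1448331_at, differed by −3.49. The other probe sets of Atp5a1, Ndufv2 and Ndufb11 are given below.

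By complex, complex III had 10 lower and 2 higher of 12 (83.3% and 16.7%, median −3.01) and ATP synthase 17 lower and 8 higher of 26 (65.4% and 30.8%, median −1.87). Complex I had 31 lower and 21 higher of 60 (51.7% and 35%, median −0.29). Complex IV had 10 lower and 12 higher of 25 (40% and 48%, median 0.00). Among all varying probe sets 41.7% were lower and 47.1% higher, so the shares of complex IV were near those of the whole array. By kind of probe set, the members split as follows. Probe sets ending in _at were lower in 46 and higher in 9 of 57, and those ending in _a_at, which match several transcripts of 1 gene, were lower in 12 and higher in 18 of 33. Over the whole array the order was not the same, with 3250 lower and 3609 higher of 7770 varying _at probe sets and 1127 lower and 720 higher of 2054 varying _a_at probe sets. Where in its transcript each probe set lies was not used here.

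Many genes had probe sets that went opposite ways in WB against TS. Of 38 genes with several varying probe sets (91 in all), 21 had 1 called higher and 1 called lower in WB against TS. Over the whole array that was so for 984 of 2191 genes (44.9%). In TS against NT none of the 38 did, against 33 of 2191 (1.51%). The distance between the highest and lowest difference within a gene had a median of 2.99 and a maximum of 5.56 in WB against TS, and a median of 0.07 and a maximum of 0.23 in TS against NT. In the same WB arrays the 3' minus 5' control differences were 5.69 and 3.70, and their part in these disagreements was not tested.

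Atp5j2 had the widest distance. Its probe set 1416269_at read 7.05, 7.27 and 7.43 in WB, against 12.44, 12.55 and 12.75 in TS, and its probe set 1435395_s_at read 12.08, 12.24 and 12.30 in WB, against 11.82, 11.95 and 12.08 in TS. One probe set thus fell by 5.29 and the other rose by 0.27. Atp5a1 differed by −3.52, 0.46 and 1.66 on its 3 probe sets. Atp5h differed by −4.57 and 0.76, Atp5pb by −3.81 and 0.71, and Ndufb11 by −4.42, 0.75 and 1.03. The core subunits Ndufv2 (−2.98, 0.70 and 1.29) and Ndufv1 (−2.62 and 0.17) split in the same manner.

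Of the 38 genes, 6 were lower on every varying probe set, namely Uqcrh, Ndufa7, Ndufa3, Uqcr10, Ndufa5 and Atp5k. Another 4 were higher on every one, namely Ndufab1, Ndufaf4, Cox5a and Cox5b. These counts were not made over the whole array, so nothing is read from them. Ndufa7 had 5 probe sets, all lower, with differences between −5.73 and −2.88. Cox5b had 3, all higher, by 0.25 to 0.36.

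**Figure D4:**
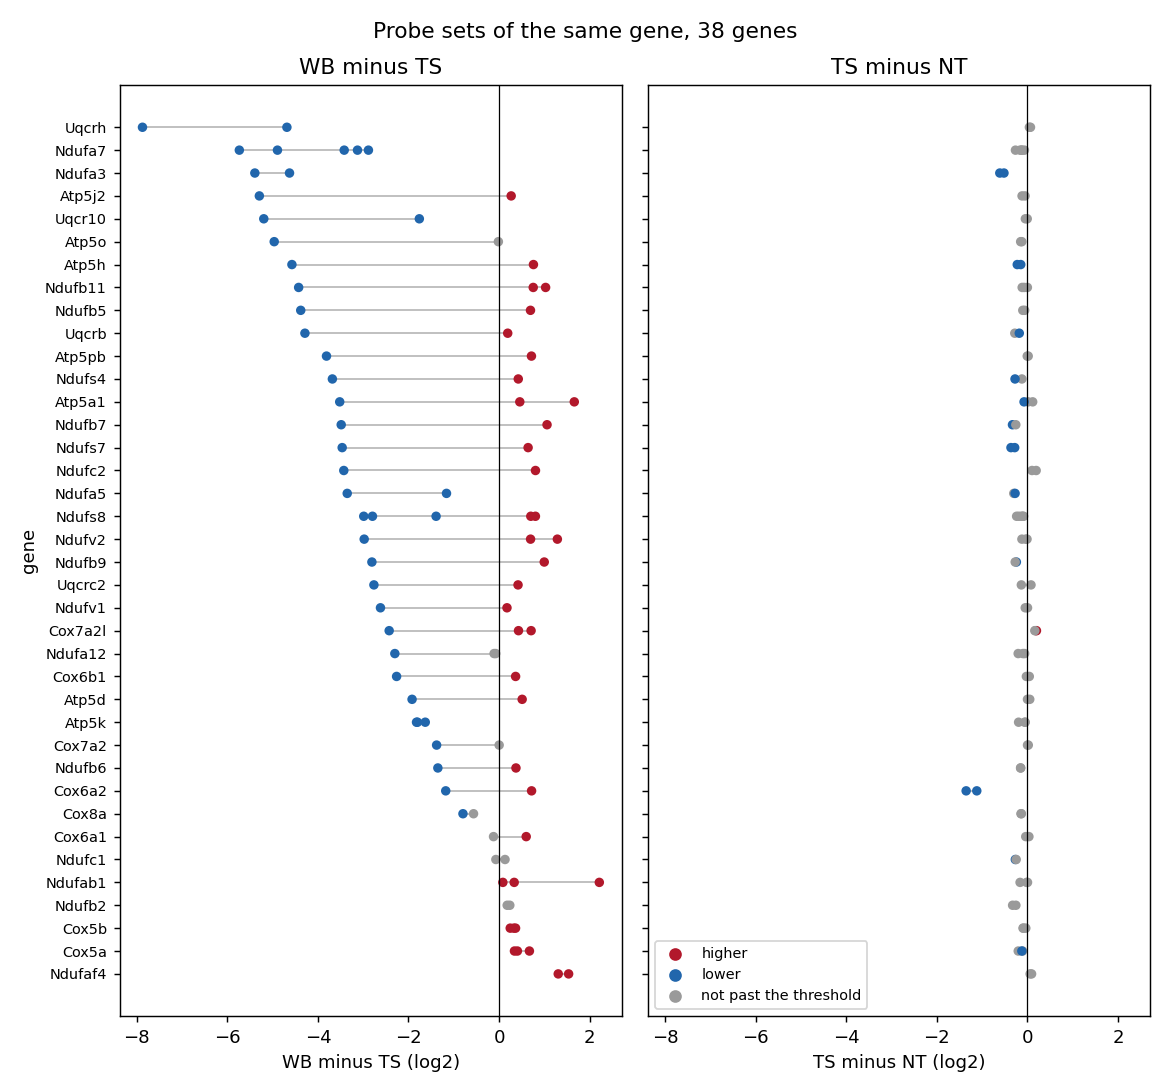
Differences (log2) of every varying probe set of the 38 genes that have several, WB minus TS on the left and TS minus NT on the right, with a line joining the probe sets of a gene and colours for higher, lower and not past the threshold. In WB minus TS 21 genes have both a higher (red) and a lower (blue) probe set past the threshold, and in TS minus NT the widest distance within a gene is 0.23.

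The muscle isoforms in WB are given beside these values. Cox8b read 5.25, 5.30 and 5.44 in WB, against 9.04, 9.25 and 9.98 in TS, without overlap, and differed by −4.03 ± 0.20 (SE, adjusted p = 7.83e-11). Cox7a1 read 6.53, 6.93 and 7.16 in WB, against 7.36, 7.59 and 8.47 in TS, also without overlap, with a difference of −0.83 ± 0.30 (SE, adjusted p = 0.0354). That adjusted p ran from 0.0104 to 0.0868 when each array was left out in turn. Cox6a2 differed by −1.18 on 1417607_at and by 0.72 on 1457633_x_at, so no direction can be given for the gene. The mean of the skeletal muscle genes ran from 7.35 to 8.43 in WB, against 10.04 to 10.52 in TS. Of these genes 16 of 26 were lower in WB, against 14.8% of all genes by their brightest probe set. Of the general isoforms, Cox6a1 was higher by 0.60 on 1417417_a_at and differed by −0.12, without passing, on 1417418_s_at. Cox7a2 differed by 0.00 on 1416970_a_at, which became 0.34 with quantile normalization, and by −1.38 on 1416971_at, which passed. Cox8a fell by 0.80 on 1416112_at (adjusted p = 0.039, and up to 0.0879 when 1 array was left out, above 0.05 in 9 of 18 fits) and differed by −0.56, without passing, on 1448222_x_at.

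WB against NT gave 78 members lower, 42 higher and a median difference of −1.07, where 23.7% of all probe sets passed, 11.6% lower and 12.1% higher, and 89.3% of the varying ones, 43.6% lower and 45.7% higher. This comparison shares its WB arrays with the one above. Cox8b was lower by 5.56, Cox7a1 by 3.01 and Uqcrh (1453229_s_at) by 7.81 in WB than in NT.

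Other mitochondrial lists split in WB against TS as well. Of 8 genes of complex II and cytochrome c 4 were lower and 2 higher, of 16 tricarboxylic acid cycle and pyruvate dehydrogenase genes 9 were lower and 5 higher, and of 24 assembly factors 6 were lower and 6 higher. Coa3 fell by 4.30 and Sdhc fell by 3.17, while Cox11 rose by 1.12. Of 15 regulators of mitochondrial biogenesis, the 6 that varied were all higher, Ppargc1b by 1.11 and Pprc1 by 0.72. Over the whole array 14.8% of genes were lower and 18.2% higher by their brightest probe set, constant genes included. Among all varying probe sets 41.7% were lower and 47.1% higher. The brightest probe set was picked by its mean over all 18 arrays, WB included. Other probe sets of the list genes were not examined.

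Within the WB group some members varied from array to array far more than in TS or NT. The SD was at least 0.4 in 16 probe sets in WB, 3 in TS and 4 in NT, of 132 varying members each, while the median SD was 0.119 in WB, 0.0929 in TS and 0.0959 in NT. All 16 were highest on WB replicate 3 and 15 were lowest on WB replicate 6. The exception, Ndufa6, was lowest on WB replicate 1. Neither the spread nor the order of the arrays was counted over the whole array, so nothing particular to the members is read from them. Atp5b, the catalytic beta subunit, read 8.18, 8.52, 10.51, 9.91, 9.35 and 7.74 on WB replicates 1 to 6, and Atp5d (1423716_s_at), the delta subunit, read 8.41, 8.59, 11.22, 10.42, 9.78 and 7.53. Both thus spanned over 2 log2 units within 1 group.

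The beta-actin 3' minus 5' difference on the same arrays was 5.86, 5.54, 5.27, 5.69, 5.80 and 5.96 on replicates 1 to 6. It was lowest on replicate 3 and highest on replicate 6, the arrays on which the 16 probe sets were highest and mostly lowest. On replicate 2, which had the next lowest difference, Atp5b and Atp5d were nevertheless below their values on replicates 4 and 5. The Gapdh difference was 3.71, 4.41, 3.45, 3.47, 3.51 and 3.63 on replicates 1 to 6. It too was lowest on replicate 3, but highest on replicate 2 and not on replicate 6. The Gapdh 5' probe set lay under the array median on every WB array, at 5.37 on replicate 2 and 5.39 on replicate 6. The Gapdh 3' probe set read 9.77 and 9.01 on those arrays. The order of the WB arrays by Gapdh is therefore uncertain. Over the 6 WB arrays, 115 of the 132 varying members ran against the beta-actin difference (r below 0) and 17 ran with it, while over all 11946 varying probe sets 6153 ran against it and 5793 with it. Members lower in WB than in TS ran against the beta-actin difference in 65 of 73 cases, and members higher in WB in 38 of 46. With the Gapdh difference 76 of the 132 members had r below 0 and 56 above. Neither the split into lower and higher members nor the Gapdh count was made over all varying probe sets, so nothing is read from them. The 16 most variable members had r below 0 with both controls, between −0.86 and −0.71 for beta-actin and between −0.57 and −0.21 for Gapdh. These counts are a description across probe sets that share the same 6 arrays.

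**Figure D5:**
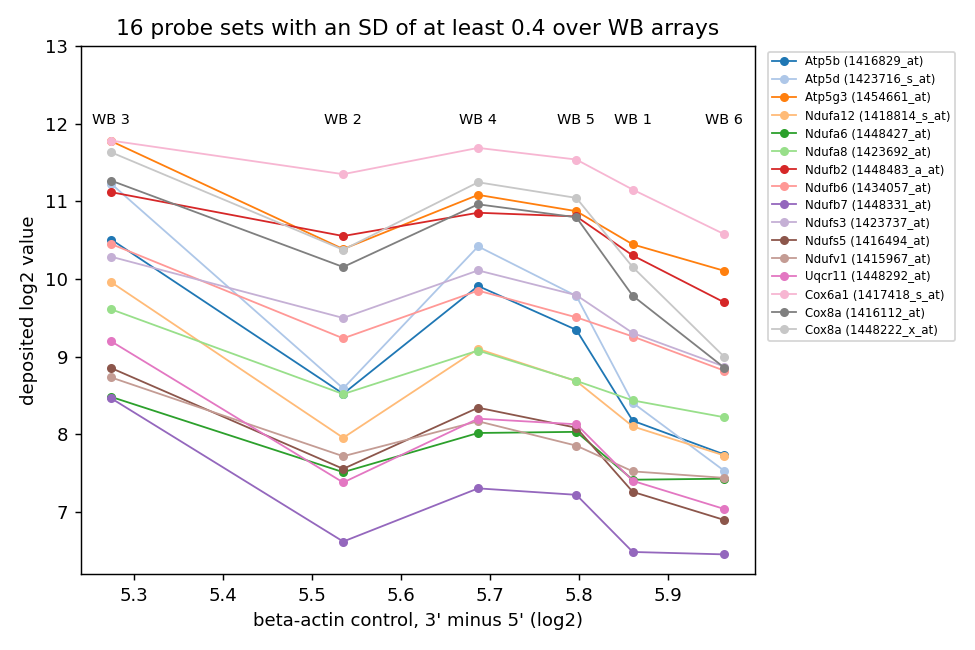
Deposited log2 values of the 16 members with an SD of at least 0.4 over the WB arrays, plotted against the beta-actin 3' minus 5' difference (log2) of each WB array, with lines joining the arrays of a probe set. All 16 are highest on WB 3, which has the lowest difference (5.27), and 15 are lowest on WB 6, which has the highest (5.96), while the Gapdh difference, not plotted, is highest on WB 2 (4.41).

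The 38 constant members read between 6.07 and 11.40, and 8 of them lay above 8. They include every probe set of Cox4i2, Cox7b2, Cox8c, Ndufaf1, Ndufaf6, Ndufb4 and Ndufv3, for which these arrays give no information. Just outside the threshold was a probe set of Ndufc2 with a range of 0.009, and the next widest constant range was 5.82e-05. Just inside it were Cox7a2 (1416970_a_at, range 0.125) and Ndufab1 (1435934_at, range 0.159), so few members lay near the threshold.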

How the data were processed

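Expression was measured on 18 Affymetrix mouse genome arrays, 6 each of WB, TS and NT dorsal skin. The values are log2 expression values per probe set as deposited by the authors in the series value table. The scale was read from the values, which run from 2.93 to 19.04. How they were summarised and normalised, and the log base, is nowhere stated in the labels or headers, and most probe sets hold the same value on every array, for a reason nowhere stated. Scanner files were not used here. Per the labels' protocols, biotinylated cRNA was made from 100 ng of total RNA extracted with Isogen and RNeasy Fibrous Tissue columns.

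After 64 control probe sets were left out, limma 3.58.1 (R 4.3.3; lmFit and eBayes) was fitted to all 45037 others on all 18 arrays with group as the only term, and p-values were adjusted by Benjamini-Hochberg over all of them. A probe set was called when its adjusted p was under 0.05 and its difference at least 0.01. The fit was tested on simulated data with seeded changes. Control differences, isoform pairs and relations over arrays used exact permutation tests (Python 3.11.15, scipy 1.17.1), two-sided. Symbols came from the platform annotation, in which 34945 probe sets have 1 symbol, 932 several and 9160 none. Promoters came from RefSeq GRCm38.p6. The number of arrays limits the precision.

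Named were the isoform genes of complex IV, core or catalytic subunits, the 8 largest rises and falls in TS against NT and in WB against TS, every varying probe set of a gene so named, and up to 4 genes of a list with the smallest p in TS against NT. Other members that passed, and examples such as Atp5d, Ndufa6, Ndufs5, Ndufv2 and Atp5pb, were picked after their values were seen. The members, gene lists, motifs and pairs were chosen with earlier results of these data known. Alternatives were quantile normalization, subtracting array medians, array weights, leaving out dim or constant probe sets, fitting 12 arrays, a replicate block, a 1.5-fold minimum, leaving out each array, and, chosen after seeing the data, leaving out probe sets that may match other transcripts. The same replicate numbers occur in each group, but nothing in the labels ties them.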

Additional observations from a re-analysis of the deposited data

Results flagged for a closer look

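In 8 of 228 groups of 6 arrays tested, 1 array stood far from the others by Dixon's criterion, which chance meets in about 1 group in 20. On NT replicate 3 Cox5b (1435613_x_at) read 11.95, against 12.06 to 12.10 on the other NT arrays. On NT replicate 4 Cox8a (1416112_at) read 11.06, against 11.24 to 11.32, and Ndufab1 (1435934_at) read 6.82, against 6.74 to 6.77. On NT replicate 5 the mean of the liver genes was 14.59, against 6.99 to 7.14, as given with the results.

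In the WB group, Cox8b read 5.44 on replicate 5, against 5.25 to 5.31 on the others, all far under the array median. Ndufaf4 (1427997_at) read 10.13 on replicate 3, against 9.83 to 9.93, the array on which the 16 most variable members were also highest. On WB replicate 2 the Gapdh 3' minus 5' difference was 4.41, against 3.45 to 3.71, and the mean of the mitochondrial biogenesis regulators was 9.14, against 9.10 to 9.11.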

How the results depend on the processing

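The count of members called in TS against NT, 31 as deposited, was 23 to 46 under the alternatives other than leaving out arrays, except that a 1.5-fold minimum left 6, all lower. Leaving out 1 array at a time gave 24 to 34 in TS against NT, and 117 to 121 in both WB against TS and WB against NT. The replicate numbers did not pair the samples (correlations of same-numbered deviations between −0.27 and 0.14), and with a replicate block the counts were 31, 117 and 117 in TS against NT, WB against TS and WB against NT. Of the calls, 9.68%, 38.7% and 35% were higher as deposited, 33.3%, 54.5% and 52.9% after quantile normalization, and 10.3%, 53.8% and 51.9% after array medians were subtracted, where constant members move.

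The Gapdh 3' minus 5' difference of TS from NT was 0.12 after quantile normalization (exact permutation p = 0.0866), and 0.11 to 0.18 without 1 array, where 9 of 12 cases gave an exact p over 0.05. Quantile normalization turned the sign of small differences that had not passed. In TS against NT these were Cox6a1 1417418_s_at (0.0084), Cox5b 1435613_x_at (0.0083), Cox6b1 1436757_a_at (0.073) and Cox4i1 (0.051), and in WB against TS Cox6a1 1417418_s_at (0.063). Without 1 array, values near 0 changed sign. In TS against NT, Atp5a1 1420037_at ran from −0.026 to 0.044, Atp5b from −0.010 to 0.048, Cox7a2 1416971_at from −0.016 to 0.022 and Ndufv1 1456015_x_at from −0.018 to 0.018. In WB against TS, Cox7a2 1416970_a_at ran from −0.012 to 0.013 and Cox6a1 1417418_s_at from −0.21 to 0.032. The cause was not tested. The calls of Atp5a1 1449710_s_at, Cox5a, Ndufa4 and Cox7a2l in TS against NT, and of Cox7a1 and Cox8a 1416112_at in WB against TS, were lost in 13, 7, 7, 5, 7 and 9 of 18 fits that left out 1 array. With a replicate block Cox7a1 in WB against TS had an adjusted p of 0.0752. The isoform pair differences kept their direction and their exact p under 0.05 in every setting run. Leaving out 1 array could not give another outcome, since every TS array lay below every NT array in each pair.

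Levels under the array median have no measured background here, so the sizes of falls to such levels are uncertain.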
